A study of Mus musculus with 6 samples.

Results

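The 10 genes described here mark cytotoxic T cells and natural killer (NK) cells and were followed by single-nucleus RNA sequencing of injured mouse cortex: Gzma, Gzmb, Gzmk, Prf1, Nkg7, Ifng, Ncr1, Klrk1, Eomes and Tbx21. They are 10 of the 32285 features in the count tables and were chosen by name, for their known function, with earlier results of these data known. Lesions were made by photothrombosis, in which light and a dye close cortical vessels, in adult C57BL/6 mice of both sexes. Ctrl mice were wild type. In Tgfbr2-cKO mice (labelled cKO) the Col1a2creER driver and repeated tamoxifen removed the TGFβ receptor gene Tgfbr2 from Col1a2-expressing cells, which are mainly fibroblasts, so the lymphocytes described here were not the intended target of the deletion. ADWA11 mice received weekly injections of an antibody that blocks the integrin αvβ8, an activator of latent TGFβ. Each of the 3 groups was sampled at 7 and at 21 days post injury (dpi), which gave 6 libraries. Each library pooled nuclei of 1 male and 1 female mouse. With 1 library per group no test between groups was run, and the 95% intervals given below cover counting error only, not the spread between mice. They treat each UMI as independent and also leave out the spread between nuclei. They are therefore too narrow where few nuclei hold many of the UMIs.

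A cytotoxic lymphocyte kills by releasing granules onto its target. Perforin, the product of Prf1, opens the target membrane, and granzymes (Gzma, Gzmb, Gzmk) are the proteases that enter through it; Nkg7 encodes a granule membrane protein that takes part in the release. Interferon gamma (Ifng) is the cytokine these cells secrete to activate myeloid cells. Klrk1 encodes the activating receptor NKG2D, carried by NK cells and by many CD8 T cells, Ncr1 encodes the NK cell receptor NKp46, and the T-box transcription factors Tbx21 (T-bet) and Eomes drive the cytotoxic programme. In the brain such cells enter after injury, and few are present at rest.

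After filtering, 61906 of 67360 deposited barcodes were kept, with median depths between 4602 and 8223 UMIs (unique molecular identifiers, 1 per captured transcript) per barcode across the 6 libraries. Clustering placed 2538 nuclei in T and NK-like clusters, from 51 in 7 dpi cKO to 1235 in 21 dpi ADWA11, with median depths between 1770 and 3105 UMIs. None of the 10 genes was used to sub-cluster or to name these nuclei. The first clustering of all nuclei, which set these nuclei apart, did not leave the 10 genes out. Among them, 419 were CD8-like (Cd8a in 41.1% of nuclei), 256 were NK-like (Klrb1c in 78.5%, Cd3e in 2.7%) and 199 were γδ-like (Trdc in 60.3%). No sub-cluster could be named CD4 at the resolution used; the largest, sub-cluster 0 (527 nuclei), held Cd4 in 27.3% and Cd8a in 15.9% of its nuclei and is called T cells of no lineage. Sub-cluster 6 (214 nuclei, Cd3e in 66.4%) was also T cells of no lineage, was led by immunoglobulin genes and carried 3.56% mitochondrial UMIs. Another 491 nuclei had fibroblast or myeloid markers in the lead, at 13.7% to 47.1% of the T and NK-like nuclei of a library; their part in each result was measured by leaving them out. The 21 dpi ADWA11 library supplied 319 of the 419 CD8-like and 180 of the 256 NK-like nuclei, so these classes are described mostly from that library.

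NK-like nuclei had the highest levels of the 10 genes together and γδ-like nuclei had among the lowest. Levels are given as CPM, the UMIs of a gene per 1000000 non-mitochondrial UMIs of a class. Summed over the 10 genes the level was 4062 CPM (95% interval 3908–4220) in NK-like nuclei, 1860 (1770–1953) in sub-cluster 6, 1132 (1066–1201) in CD8-like nuclei, 590.1 (549–633) in sub-cluster 0, 122 (94.98–155) in γδ-like nuclei and 100.2 (78.0–127) in regulatory T-like nuclei. These pooled intervals do not overlap, except those of the γδ-like and regulatory T-like nuclei. Proliferating nuclei, at 1173 (1065–1289), overlapped CD8-like nuclei. Sub-cluster 9 (67 nuclei), left without a name by the Cd3e limit set for NK-like classes, was at 1665 (1483–1862). It lay above CD8-like nuclei and overlapped sub-cluster 6. In 21 dpi ADWA11, the source of 46 of its nuclei, it was at 2091 (1836–2373). The order of sub-cluster 6 and CD8-like nuclei was not distinguishable within either ADWA11 library, with 1241 (1063–1440) against 1063 (989–1142) at 21 dpi and 2057 (1850–2280) against 1855 (1589–2153) at 7 dpi. All of the 256 NK-like nuclei had a UMI of at least 1 of the 10 genes, against 79.7% of CD8-like and 21.1% of γδ-like nuclei. Klrk1 and Ncr1, whose levels are given below, were the largest parts of the NK-like sum. The heat map of detection by class gives the share for each gene, and the order of the classes differs between genes.

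**Figure D1:**
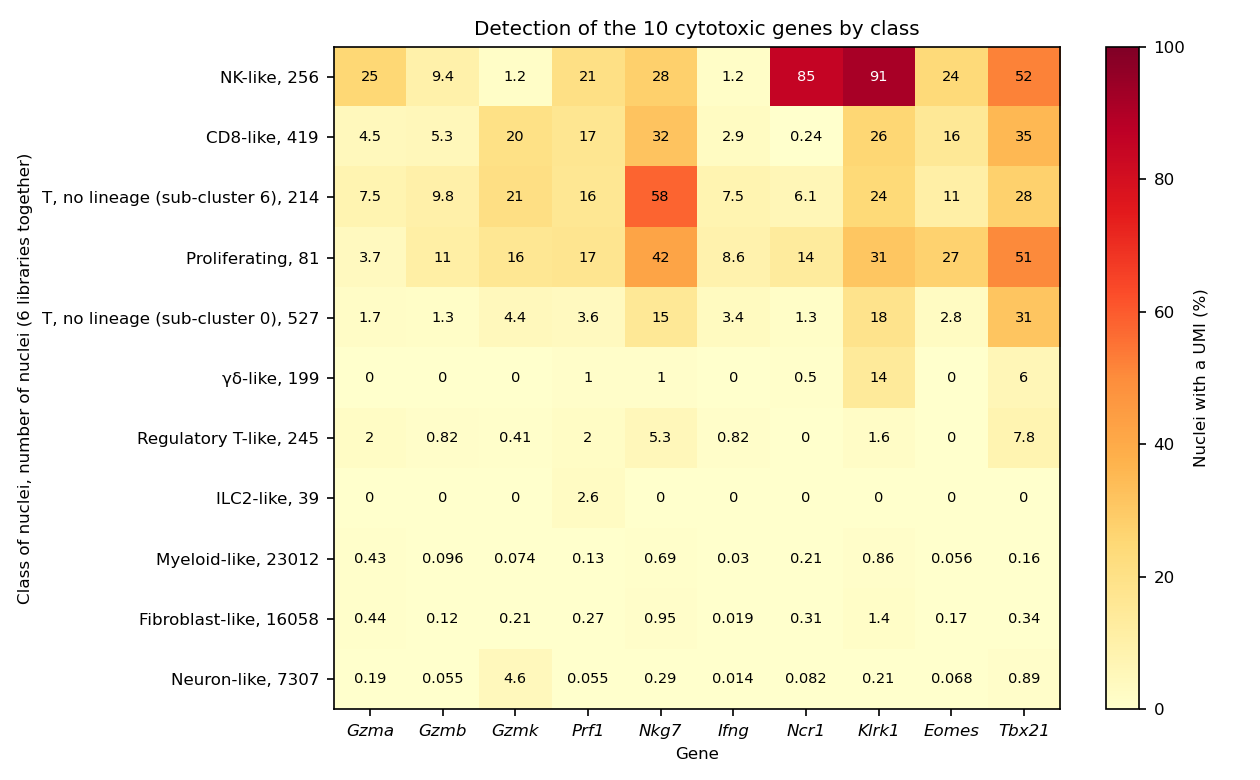
Percentage of nuclei with at least 1 UMI of each gene (columns) in each class of nuclei (rows, with the number of nuclei), over the 6 libraries together. Ncr1 (84.8%) and Klrk1 (91.4%) fill most NK-like nuclei, the granzymes are spread over NK-like, CD8-like and sub-cluster 6 nuclei, and the γδ-like row holds values above 10% for Klrk1 alone.

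The granule genes were split between classes. In sub-cluster 6 the granzymes Gzma and Gzmb rested in part on single nuclei, since 41 of its 183 Gzma UMIs and 78 of its 167 Gzmb UMIs lay in 1 nucleus each. Gzma, a tryptic granzyme, was at 253 CPM (216–295) in NK-like nuclei, 212 (183–245) in sub-cluster 6 and 34.2 (23.6–48.1) in CD8-like nuclei. Gzmb, the granzyme that activates caspases, was at 52.2 CPM (36.2–73.0) in NK-like nuclei and at 27.0 (17.6–39.5) in CD8-like nuclei, intervals that overlap. Gzmk, a granzyme typical of memory-like CD8 T cells, had the opposite order: 109.9 CPM (89.97–133) in CD8-like nuclei, in 20.1% of them, against 4.61 (0.9501–13.5) in NK-like nuclei. These levels come mostly from 21 dpi ADWA11, and the order for Gzma was not the same in every library. In 21 dpi Ctrl it was at 85.9 CPM (39.3–163, 9 UMIs) in CD8-like and 20.7 (0.524–115, 1 UMI) in NK-like nuclei, which overlap. Prf1 was at 117 CPM (92.0–146) in NK-like and 87.1 (69.5–108) in CD8-like nuclei, which overlap. Nkg7 was at 752 CPM (695–812) in sub-cluster 6, 242 (212–275) in CD8-like nuclei and 169 (139–204) in NK-like nuclei. No UMI of Gzma, Gzmb or Gzmk was found in the 199 γδ-like nuclei, which allows up to 5.396 CPM at the limit of 3 counts used here for a count of 0.

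The start sites of 4 of these granule genes hold the core that T-box factors bind, and they are shown because Tbx21 and Eomes are members of the same set. Each line gives 250 bases before to 50 bases after the RefSeq start on GRCm38.p6, 5′ to 3′ on the gene's strand, with the letters AGGTGT in capitals where they occur on either strand (a match on the other strand reads ACACCT). The regions are chr13:113100932-113101231 (minus strand) for Gzma, chr13:113180916-113181215 (minus) for Gzmk, chr7:43436888-43437187 (plus) for Nkg7 and chr10:61297586-61297885 (plus) for Prf1.
Gzma: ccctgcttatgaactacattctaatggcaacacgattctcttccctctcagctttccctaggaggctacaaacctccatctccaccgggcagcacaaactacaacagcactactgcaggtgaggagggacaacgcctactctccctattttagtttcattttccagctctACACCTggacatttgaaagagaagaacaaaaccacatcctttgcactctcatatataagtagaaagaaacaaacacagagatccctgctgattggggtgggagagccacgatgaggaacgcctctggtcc
Gzmk: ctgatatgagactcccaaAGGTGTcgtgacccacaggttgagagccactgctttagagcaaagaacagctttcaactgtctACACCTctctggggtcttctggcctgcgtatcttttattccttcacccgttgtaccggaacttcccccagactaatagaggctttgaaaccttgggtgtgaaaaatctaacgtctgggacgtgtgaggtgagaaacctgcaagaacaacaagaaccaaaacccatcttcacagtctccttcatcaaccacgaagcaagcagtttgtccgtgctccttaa
Nkg7: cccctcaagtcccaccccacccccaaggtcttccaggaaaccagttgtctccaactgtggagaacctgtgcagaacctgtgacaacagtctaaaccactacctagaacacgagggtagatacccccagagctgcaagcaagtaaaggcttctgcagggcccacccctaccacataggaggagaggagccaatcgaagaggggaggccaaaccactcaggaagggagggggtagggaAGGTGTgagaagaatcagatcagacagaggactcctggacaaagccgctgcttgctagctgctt
Prf1: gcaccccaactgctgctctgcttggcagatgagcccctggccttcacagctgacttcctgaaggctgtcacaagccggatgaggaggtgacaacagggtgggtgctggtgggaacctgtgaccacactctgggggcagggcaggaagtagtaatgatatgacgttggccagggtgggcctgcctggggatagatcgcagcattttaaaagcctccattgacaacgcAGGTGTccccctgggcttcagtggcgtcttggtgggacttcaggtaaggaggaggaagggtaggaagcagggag
The core began at −80 in Gzma, −14 in Nkg7 and −24 in Prf1, counted from the start site, and occurred at 2 places in Gzmk. It was absent from the same window of the other 6 members, all 10 of which were matched in the RefSeq table, and present in 13.7% of 32851 promoter windows of this length. The Runx core TGTGGT, searched on both strands, was present in 6 members (Gzma, Gzmb, Klrk1, Ncr1, Nkg7 and Prf1) against 16.8% of all windows. These are matches of letters and no binding was measured.

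Gene structure bears on counts from nuclei, where unspliced transcripts are counted too. In the GRCm38 annotation, Nkg7 spans 1177 bases at chr7:43437073-43438249, 77.7% of them exonic. Gzmk spans chr13:113171608-113225908, of which 2.56% is exonic, and Esm1 overlaps it on the other strand over 8440 bases. For Gzmk the annotated gene thus begins upstream of the RefSeq start whose sequence is shown. Of its 778 UMIs in all nuclei, 32.0% lay in T and NK-like nuclei and 56.2% in neuron-like nuclei, where 4.598% of 7307 nuclei had a UMI at a median depth of 15152 UMIs. For the other 9 genes between 64.4% (Gzma) and 84.9% (Ncr1) of all UMIs lay in T and NK-like nuclei.

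Among the receptors and transcription factors, Ncr1 set NK-like nuclei apart from CD8-like nuclei most. Ncr1 was at 1258 CPM (1173–1347) in NK-like nuclei and at 3.11 (0.641–9.09) in CD8-like nuclei, where 1 of 419 nuclei held its UMIs. Klrk1 was at 1648 CPM (1551–1749) in NK-like, 289 (256–325) in CD8-like and 79.2 (57.5–106) in γδ-like nuclei, where it was the member found most often, in 14.1% of nuclei. Eomes was at 129 CPM (103–160) in NK-like and 87.1 (69.5–108) in CD8-like nuclei, and had no UMI in γδ-like or regulatory T-like nuclei. Tbx21 was the most widely spread: 427 CPM (378–480) in NK-like, 240.5 (211–274) in CD8-like and 226.5 (202–254) in sub-cluster 0 nuclei, so that the CD8-like nuclei and the T cells of no lineage could not be told apart by it. Ifng was detected in few nuclei of any class, at 18.4 CPM (11.8–27.3) in sub-cluster 0, 12.4 (6.43–21.7) in CD8-like and 4.61 (0.9501–13.5) in NK-like nuclei. At this depth those 3 levels were not distinguishable in the CD8-like class from either of the others.

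Shares of nuclei with a UMI also include stray RNA taken up by other nuclei. In myeloid-like nuclei (23012, median depth 5214 UMIs) and fibroblast-like nuclei (16058, median 6572), the share with a UMI was between 0.0304% and 0.865% and between 0.0187% and 1.41%, respectively, over the 10 genes, and Klrk1 was highest in both. In T and NK-like nuclei (median depth 2600) it was between 2.48% for Ifng and 26.6% for Tbx21. With every nucleus thinned to 1000 UMIs, any of the 10 genes was seen in 1.54% of myeloid-like and 1.84% of fibroblast-like nuclei of 21 dpi ADWA11, against 0.240% and 0.759% in 21 dpi Ctrl. The background was thus highest in the library with the most lymphocytes. The 0.239% of CD8-like nuclei with Ncr1 lies at that background and is not read as expression.

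CD4 T cells could be described only by an alternative naming. At the finer resolution of 1, 315 nuclei were CD4-like, and the 10 genes summed to 384 CPM in them, of which Tbx21 gave 218 CPM and Ncr1 had no UMI. Calling a nucleus CD4 by a Cd4 UMI without a Cd8a or Cd8b1 UMI gave 366 nuclei at 229 CPM (205–256), against 1145 CPM (1094–1198) in the 509 nuclei called CD8 in the same way. Both namings put CD4 nuclei below CD8 nuclei.

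In the nuclei of ADWA11 mice at 21 dpi, CD8-like and NK-like nuclei took a larger share of the library than in any other library. CD8-like nuclei were 2.57% of nuclei in 21 dpi ADWA11 and 0.337% in 21 dpi Ctrl, and the other 4 libraries lay between 0.00944% and 0.338%. NK-like nuclei were 1.45% in 21 dpi ADWA11 and 0.161% in 21 dpi Ctrl, and between 0.00944% and 0.274% elsewhere. γδ-like nuclei were lowest in ADWA11 at 21 dpi, with 0.145% in ADWA11, 0.390% in Ctrl and 1.06% in cKO, an order that depended on the naming. Called by T cell receptor UMIs, γδ nuclei were 1.10% in ADWA11, 0.413% in Ctrl and 1.28% in cKO, a set that also takes in part of the NK-like nuclei, 16.0% of which had a Trdc UMI. Nuclei were also split by sex, from Xist and Y-linked UMIs, to separate the 1 female and the 1 male mouse of each library as far as those calls hold. NK-like nuclei were 0.786% of female and 1.55% of male nuclei under ADWA11, against 0.104% and 0.206% in Ctrl. CD8-like nuclei were 1.80% and 2.45%, against 0.311% and 0.352%. Both mice under ADWA11 thus lay above both Ctrl mice for either class. Naming each nucleus by its own marker UMIs instead of by cluster gave 2.22% CD8 nuclei in ADWA11, 0.589% in Ctrl and 1.25% in cKO, and 1.21%, 0.138% and 0.167% NK nuclei.

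**Figure D2:**
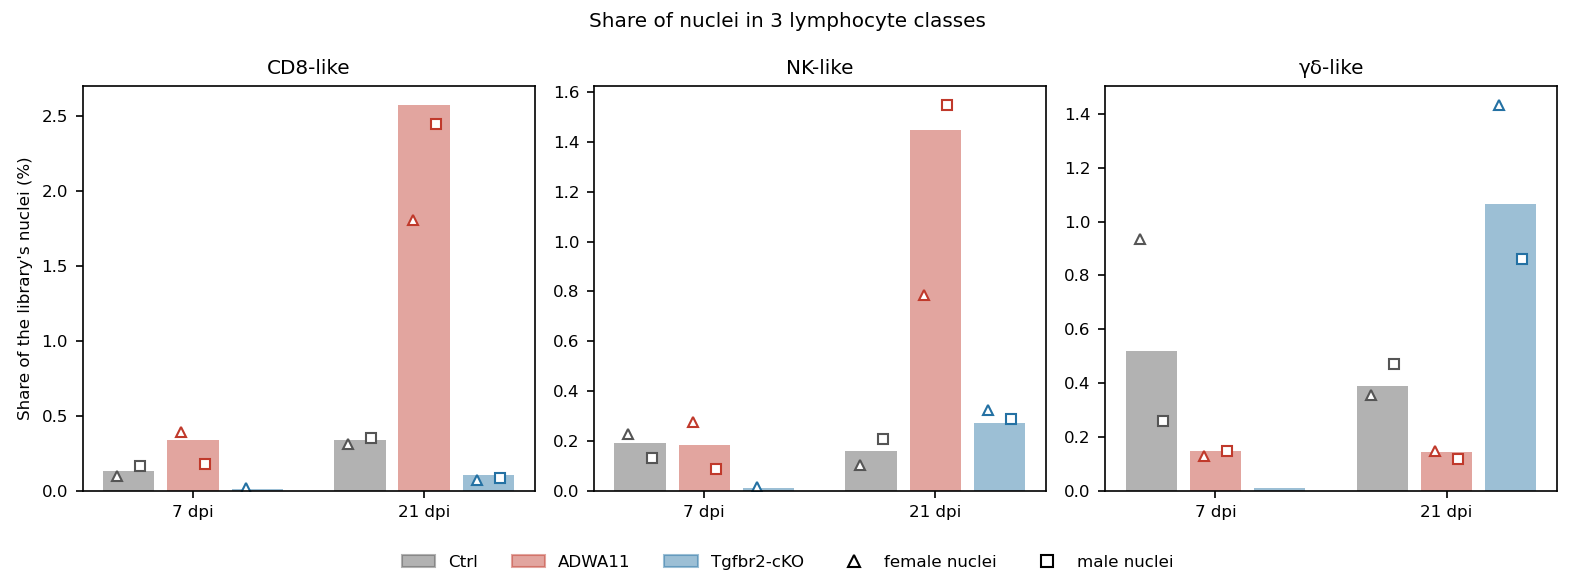
Share of each library's nuclei (y axis, %) that were CD8-like, NK-like or γδ-like, at 7 and 21 dpi in Ctrl, ADWA11 and Tgfbr2-cKO. Bars are all nuclei of a library, triangles its female and squares its male nuclei; the 21 dpi ADWA11 bars stand at 2.57% (CD8-like), 1.45% (NK-like) and 0.145% (γδ-like).

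Among T and NK-like nuclei alone, NK-like nuclei were 14.6% in 21 dpi ADWA11, 5.43% in Ctrl and 4.75% in cKO. CD8-like nuclei were 25.8%, 11.4% and 1.85%. This last difference depended on naming, because by marker UMIs CD8 nuclei were 22.3%, 19.9% and 21.6%. A nucleus library measures shares of nuclei and of UMIs, so more lymphocytes and fewer other nuclei cannot be told apart, nor, in a level over all T and NK-like nuclei, more cells of a type and more RNA per cell.

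Over all T and NK-like nuclei, the summed level of the 10 genes was higher in 21 dpi ADWA11 than in 21 dpi Ctrl: 1035 CPM (1004–1068, 4092 UMIs) against 695 (647–745, 794 UMIs), a log2 ratio of 0.58 (0.47–0.69). Klrk1 and Ncr1 supplied 1372 and 784 of the 4092 UMIs under ADWA11, and 251 and 53 of the 794 in Ctrl. The summed ratio thus rests largely on these receptor genes and is not a measure of all 10 alike. Of the 10 genes, 4 were past 2-fold higher (Ncr1, Eomes, Gzmb and Gzma) and 0 lower, where 6.02% of the 13984 genes with at least 10 UMIs were past 2-fold higher and 7.84% lower. The median log2 ratio was 0.85 over the members and −0.01 over those genes. The 2 libraries also differed in quality. Among T and NK-like nuclei, mitochondrial UMIs were 1.23% in ADWA11 and 2.12% in Ctrl, and nuclei led by another class were 13.7% and 22.0%. Without the nuclei led by another class the levels were 1310 CPM (1267–1353) and 989 (918–1063). The part of the mitochondrial difference was not tested. The plot of levels by library shows each gene.

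**Figure D3:**
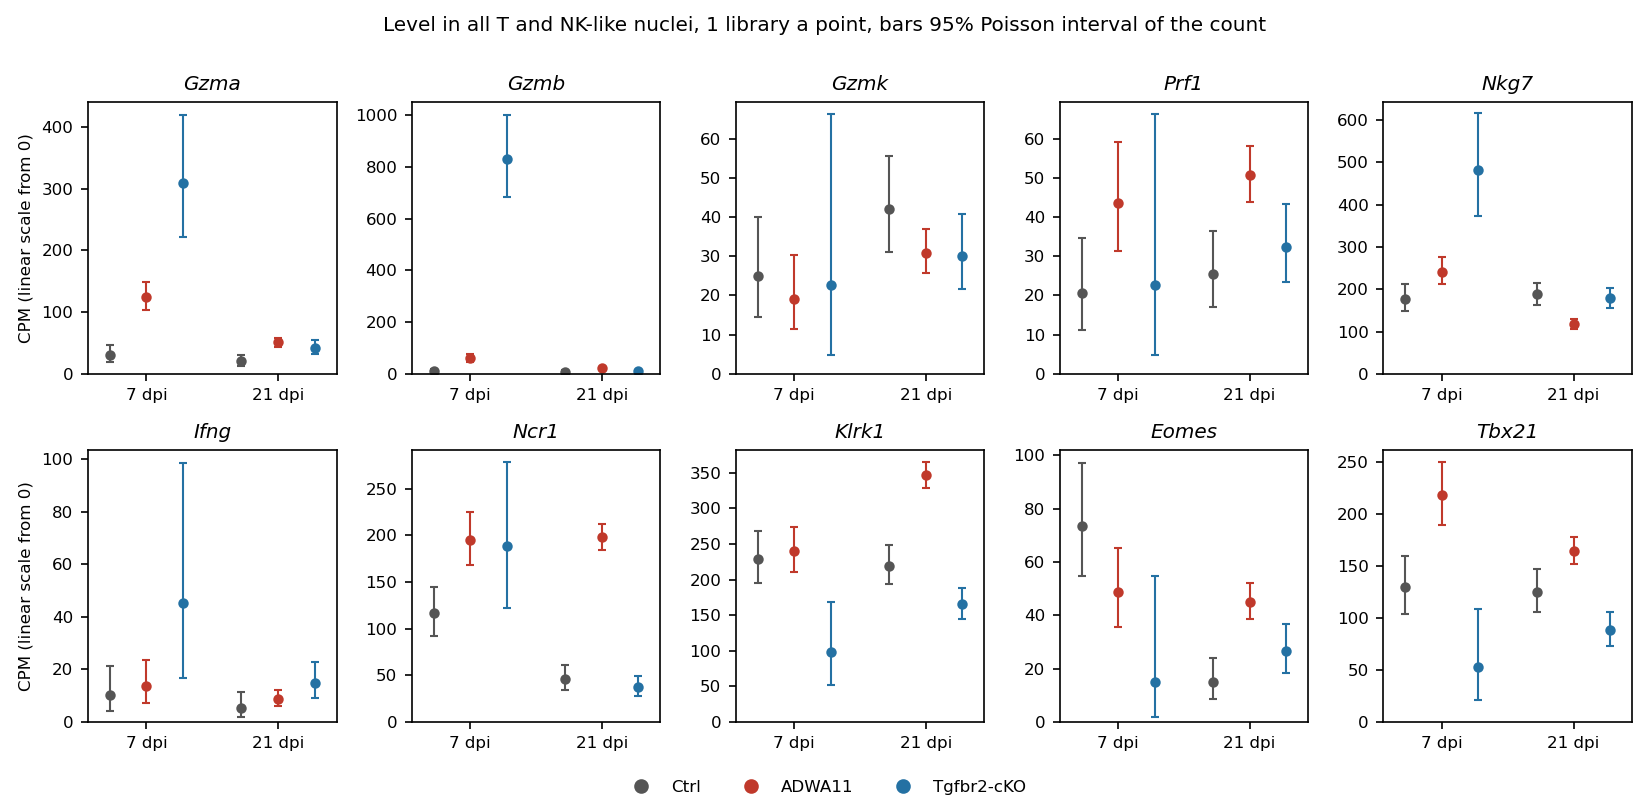
Level of each gene (CPM, linear axes from 0, 1 panel per gene with its own scale) in all T and NK-like nuclei of each library, at 7 and 21 dpi; points are libraries (Ctrl grey, ADWA11 red, Tgfbr2-cKO blue) and bars the 95% Poisson interval. Ncr1, Klrk1 and Eomes stand above Ctrl and cKO under ADWA11 at 21 dpi, and Gzma and Gzmb reach their highest values in 7 dpi cKO, a library of 51 such nuclei.

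With all nuclei kept, Ncr1 had the largest log2 ratio among the members at 21 dpi under ADWA11. With the nucleus holding most UMIs of each gene left out of each library, Gzmb was larger, at 3.52 against 2.36 for Ncr1. The levels of Ncr1 were 116 CPM in 7 dpi Ctrl, 195 in 7 dpi ADWA11, 189 in 7 dpi cKO, 46.4 in 21 dpi Ctrl, 198 in 21 dpi ADWA11 and 37.4 in 21 dpi cKO. The 21 dpi ADWA11 library was 2.10 above Ctrl on the log2 scale (1.70–2.53), and 78.4% of its 784 UMIs lay in NK-like nuclei. Klrk1, in the same order, was at 229.6, 241, 98.2, 219.5, 347 and 166 CPM, and its log2 ratio at 21 dpi under ADWA11 was 0.66 (0.47–0.86). Of its UMIs, 56.2% lay in NK-like nuclei in ADWA11 and 41.8% in Ctrl. Of the 6 libraries, 21 dpi ADWA11 had the highest Klrk1 level. Its Ncr1 level (185–213) was not distinguishable from those of 7 dpi ADWA11 (168–226) and 7 dpi cKO (122–279). The 7 dpi cKO level came from 25 UMIs in 3 nuclei, 15 of them in 1 nucleus. With the nucleus holding most Ncr1 UMIs left out of each library, 7 dpi cKO was at 79.6 CPM. The log2 ratio of 21 to 7 dpi in ADWA11 was then 0.32 (0.07–0.59), clear of 0.

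The T-box factors differed from each other. Eomes was at 73.6, 48.8, 15.1, 14.9, 45.0 and 26.4 CPM in the same order of libraries, with a log2 ratio of 1.60 (0.88–2.41) for ADWA11 against Ctrl at 21 dpi. Its Ctrl level at 21 dpi rested on 17 UMIs. Tbx21 was at 129.5, 218, 52.9, 125, 164.5 and 88.0 CPM, and its log2 ratio was 0.39 (0.13–0.67). Eomes was past 2-fold there and Tbx21 was not.

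Among the granule genes, Gzma was at 30.9, 124, 309.6, 20.1, 50.9 and 42.5 CPM, and its log2 ratio for ADWA11 against Ctrl at 21 dpi was 1.34 (0.71–2.03). Gzmb was at 8.83, 60.5, 831, 7.87, 22.0 and 9.53 CPM, with a log2 ratio of 1.48 (0.49–2.66), on 9 UMIs in 3 Ctrl nuclei, of which 7 lay in 1 proliferating nucleus. With the nucleus holding most Gzmb UMIs left out of each library, Gzmb was at 20.2 CPM under ADWA11 and 1.76 (2 UMIs) in Ctrl, a log2 ratio of 3.52 (1.62–6.59). Both granzymes were low in either Ctrl library. Prf1 was at 20.6, 43.5, 22.7, 25.4, 50.6 and 32.3 CPM, a log2 ratio of 1.00 (0.43–1.61) just short of 2-fold. Gzmk was at 25.0, 19.1, 22.7, 42.0, 30.9 and 30.1 CPM, and its log2 ratio of −0.44 (−0.94–0.07) was not distinguishable from 0. Among the 6 libraries the Gzmk intervals of 7 dpi ADWA11 (11.3–30.2) and 21 dpi Ctrl (31.0–55.7) were the ones that did not overlap. Nkg7 was the 1 member whose interval lay below 0. Its levels were 178, 242, 483, 188, 117 and 178 CPM, and its log2 ratio at 21 dpi under ADWA11 was −0.68 (−0.92 to −0.44). Ifng was at 10.3, 13.8, 45.3, 5.25, 8.602 and 14.7 CPM, on 6 to 34 UMIs a library, and its log2 ratio of 0.71 (−0.56–2.26) was not distinguishable from 0 at this depth.

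At 21 dpi the summed level had the same direction in nuclei of each sex. The summed log2 ratio of ADWA11 to Ctrl was 0.27 (0.09–0.45) in female and 0.58 (0.38–0.78) in male nuclei. Ncr1 was at 2.00 and 1.90, Eomes at 1.17 and 1.86, Klrk1 at 0.54 and 0.57, Gzma at 1.02 and 2.66 and Nkg7 at −1.22 and −0.56, in female and male nuclei respectively. Gzmb was at 0.23 (−1.06–1.60) in female nuclei, and in male nuclei it had 46 UMIs under ADWA11 and 0 in Ctrl. The male Ctrl values of Gzma (2 UMIs) and Eomes (4 UMIs) rest on few counts. Sub-cluster 6, in which Nkg7 was highest, made up 2.83% of T and NK-like nuclei in 21 dpi ADWA11 and 12.7% in Ctrl, and it held 67.0% of the Nkg7 UMIs in Ctrl. With sub-cluster 6 left out, the Nkg7 log2 ratio was 0.53, above 0, so the lower Nkg7 level over all T and NK-like nuclei rested on those nuclei. The Gzmk ratio was then 0.66 in place of −0.44. Within sub-cluster 6 Nkg7 was at 480 CPM (372–610) under ADWA11 and 917 (773–1080) in Ctrl.

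Inside the cytotoxic classes the pooled summed levels of these 2 libraries were close to each other. In CD8-like nuclei at 21 dpi it was 1063 CPM (989–1142) under ADWA11 and 982.5 (802–1192) in Ctrl, a log2 ratio of 0.11 (−0.18–0.43). The sexes went opposite ways. Female CD8-like nuclei were at 991.7 CPM (823.5–1184) under ADWA11 and 1381 (1072–1750) in Ctrl, a log2 ratio of −0.48 (−0.92 to −0.03), and male nuclei at 1026 (930–1130) and 742 (476–1105, 12 nuclei). In NK-like nuclei it was 4335 CPM (4142–4534) and 3912 (3374–4511), a log2 ratio of 0.15 (−0.07–0.37). Both pooled intervals include 0.

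**Figure D4:**
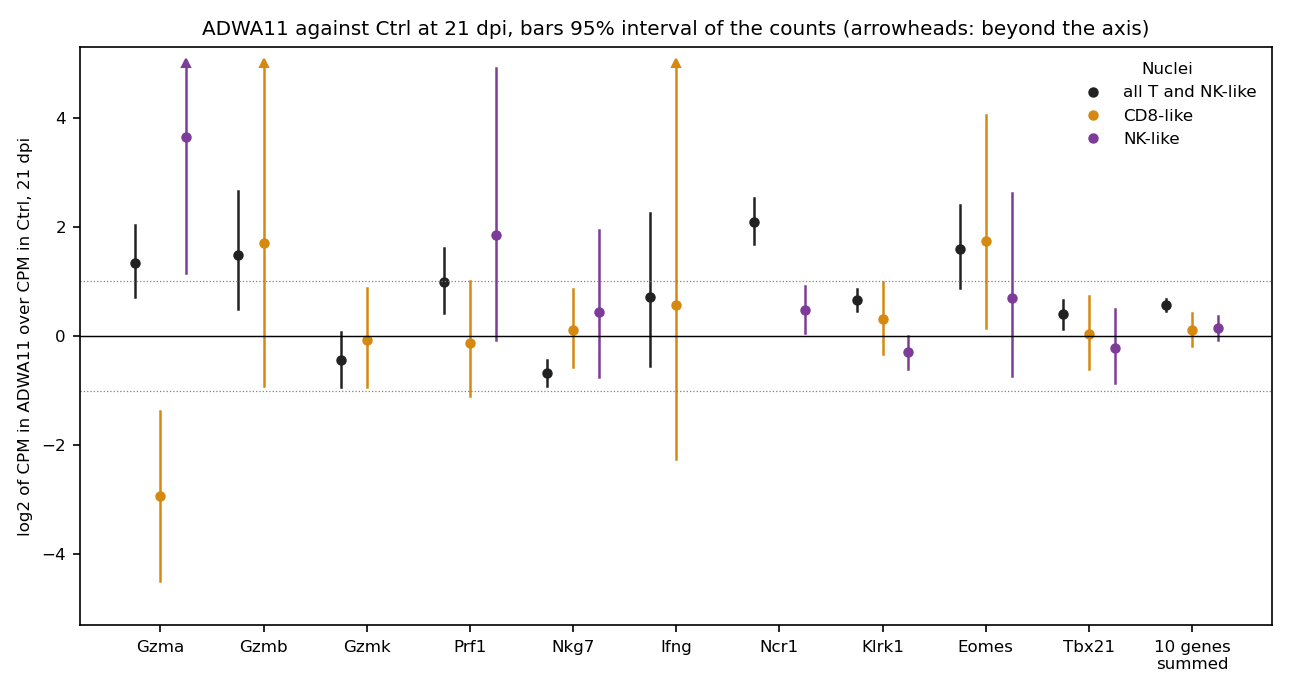
Log2 ratio of CPM in ADWA11 to CPM in Ctrl at 21 dpi (y axis) for each gene and for the 10 summed (x axis), in all T and NK-like (black), CD8-like (orange) and NK-like (purple) nuclei; bars are 95% intervals of the counts, dotted lines mark 2-fold, arrowheads mark bars that run past the axis, and genes with no UMI in either library of a class or 0 in Ctrl are not drawn. The summed values are 0.58, 0.11 and 0.15.

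Single genes differed within the classes. In CD8-like nuclei Gzma was at 11.3 CPM (8 UMIs) under ADWA11 and 85.9 (9 UMIs) in Ctrl, a log2 ratio of −2.93 (−4.50 to −1.38), opposite in sign to its ratio over all T and NK-like nuclei. Eomes was at 96.0 CPM (68 UMIs) and 28.6 (3 UMIs), a log2 ratio of 1.75 (0.14–4.06). The other members with UMIs in both libraries had intervals that included 0, with Gzmb at 1.70 (−0.93–7.07) on 22 and 1 UMIs. In NK-like nuclei Gzma was at 261 CPM (114 UMIs) and 20.7 (1 UMI), a log2 ratio of 3.66 (1.15–8.97), and Ncr1 was at 1406 and 1014 CPM, a ratio of 0.47 (0.05–0.92). Klrk1 was at 1763 and 2173 CPM, a ratio of −0.30 (−0.60–0.01). The Ctrl values of Gzma rest on few counts from female nuclei. All 9 UMIs in CD8-like nuclei were in the 21 female nuclei, with 0 in 12 male nuclei and 0 in 11 nuclei of no called sex, and the 1 UMI in NK-like nuclei was in a female nucleus too. The lower Gzma level in CD8-like nuclei was thus seen in female nuclei and could not be seen in male nuclei, where Ctrl was at 0 and ADWA11 had 4 UMIs in 169 nuclei. Of the 9 Ctrl UMIs, 5 lay in 1 nucleus, and with the top nucleus of each library left out the ratio was −2.21 (−4.28–0.06).

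The CD8 result depended on the naming. In nuclei called CD8 by their own UMIs, the summed level at 21 dpi was 941 CPM (877–1008, 275 nuclei) under ADWA11 and 1387 (1241–1546, 77 nuclei) in Ctrl, a log2 ratio of −0.56 (−0.75 to −0.37). Nuclei of sub-clusters 0 and 6 with Cd8a or Cd8b1 UMIs fall into this set too. Thinned to 1000 UMIs, 59.7% (54.0–65.2) of CD8-like nuclei under ADWA11 and 65.1% (49.1–79.0) in Ctrl had a UMI of a member, and 78.7% and 79.5% without thinning.

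In 21 dpi Tgfbr2-cKO the summed level over all T and NK-like nuclei was slightly below that of Ctrl. It was 625 CPM (584–668, 852 UMIs), a log2 ratio of −0.15 (−0.29 to −0.01). The sign was the opposite in male nuclei, at 0.13, and with filters over all libraries, at 0.060. Of the 10 genes, 2 (Gzma and Ifng) were past 2-fold higher and 0 lower, against 9.55% and 8.23% of all genes tested, and the member median was 0.10. Gzma had a log2 ratio of 1.08 (0.36–1.84) and Ifng of 1.48 (0.11–3.09), on 20 against 6 UMIs. Gzmb was at 0.28, and at 1.74 (−0.58–5.01) on 8 against 2 UMIs with the nucleus holding most of its UMIs left out of each library. Neither Gzma nor Ifng was higher in both sexes: in female nuclei Gzma was at −0.63 (−1.70–0.41) and Ifng at −0.22 (−2.34–1.90). Klrk1 at −0.41 (−0.67 to −0.14) and Tbx21 at −0.51 (−0.87 to −0.15) lay below Ctrl within 2-fold. In sub-cluster 0, the class with the most nuclei in both libraries (108 in Ctrl, 110 in cKO), the summed log2 ratio was −0.06 (−0.40–0.27), but single genes differed. Of 7 members with enough UMIs 4 were past 2-fold higher and 0 lower, against 9.85% and 7.6% of all genes tested in that sub-cluster, with a member median of 1.23 against 0.036 over those genes. They were Ifng at 2.82 (0.0039–8.26), on 10 UMIs in cKO and 1 in Ctrl, Eomes at 2.67 (−0.19–8.12), Gzmk at 1.61 (−0.25–4.06) and Prf1 at 1.23 (−0.73–3.73), each on at most 3 Ctrl UMIs. These 4 genes reached the minimum of 10 UMIs mainly through cKO, the library in which they were higher. The count and the median are therefore not read as a difference from all genes. Klrk1, with 44 and 51 UMIs, was at −0.72 (−1.33 to −0.11). CD8-like nuclei numbered 7 in 21 dpi cKO, too few for a level. At resolution 1 there were 96, of which 91 came from a sub-cluster that held 24 of the 61 in Ctrl, at 648 CPM against 1115 in Ctrl (log2 ratio −0.78, −1.10 to −0.47). By marker UMIs the ratio was −0.11 (−0.33–0.11), so the level in CD8 nuclei of cKO depended on how they were named.

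γδ-like nuclei were the named class with the most nuclei in 21 dpi cKO (70 of 379) and in both Ctrl libraries (43 of 238 and 51 of 387). The summed level was 65.3 CPM (28.2–129) in 7 dpi Ctrl, 156 (92.6–247) in 21 dpi Ctrl and 139.6 (95.5–197) in 21 dpi cKO, with overlapping intervals. Klrk1 supplied 4 of 8, 11 of 18 and 27 of 32 UMIs. Eomes, Ifng, Gzma, Gzmb and Gzmk had none in the 199 nuclei. These low levels depended on the naming. Nuclei called γδ by T cell receptor UMIs alone, the set that overlaps the NK-like nuclei, summed to 722 CPM (609–851) in 7 dpi Ctrl, 389.8 (295–505) in 21 dpi Ctrl, 455.6 (382–539) in 21 dpi cKO and 1696 (1586–1811) in 21 dpi ADWA11.

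At 7 dpi, ADWA11 was also above Ctrl in the pooled libraries, at 1206 CPM (1137–1278) against 823 (756–894), a log2 ratio of 0.55 (0.40–0.70). Of the 10 genes, 3 were past 2-fold higher and 0 lower, against 6.85% and 5.15% of all genes. These were Gzma at 2.01 (1.33–2.75), Gzmb at 2.78 (1.57–4.28) and Prf1 at 1.08 (0.17–2.07) on the log2 scale. Without the nuclei led by another class, Gzma and Gzmb were past 2-fold higher and Prf1 was not. Female and male nuclei went opposite ways. The summed log2 ratio was 1.21 (0.97–1.46) in female nuclei and −0.98 (−1.34 to −0.63) in male nuclei, and male ADWA11 nuclei had no Gzma UMI against 14 in male Ctrl, of which 13 lay in 1 nucleus. The lower male Gzma level thus rested on a single Ctrl nucleus. With the nucleus holding most UMIs of the gene left out of each library, the pooled log2 ratio was 3.03 (1.99–4.28) for Gzma, 4.13 (2.20–7.22) for Gzmb and 0.92 (−0.07–2.01) for Prf1. The higher pooled sum at 7 dpi was thus seen in the female and not in the male nuclei. Prf1 was above Ctrl in neither sex, at −0.10 in female and −0.45 in male nuclei, and its pooled value also counts nuclei of no called sex. Nkg7 was above Ctrl at 7 dpi, at 0.44 (0.12–0.77), where at 21 dpi it was below, and it was at −1.55 in male nuclei of 7 dpi.

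The 7 dpi cKO library had the highest summed level, 2069 CPM (1831–2329), from 274 UMIs in 51 nuclei. Of the 10 genes, 4 were past 2-fold above 7 dpi Ctrl (Gzma, Gzmb, Ifng and Nkg7) and 3 below (Klrk1, Eomes and Tbx21), against 12.5% and 18.1% of all genes. The high values came from few nuclei. All 41 Gzma UMIs were in 1 nucleus, 78 of 110 Gzmb UMIs were in 1 nucleus and the rest in 2 more, and 97.1% of all member UMIs lay in the 10 nuclei of sub-cluster 6. Without sub-cluster 6 the summed log2 ratio to Ctrl was −2.88 in place of 1.33. Nkg7 had 64 UMIs in 8 nuclei. With the nucleus holding most UMIs of the gene left out of each library, the log2 ratio was 1.24 (0.69–1.77) for Nkg7 and 6.42 (4.45–9.53) for Gzmb. For Ifng it was 1.96 (−0.81–4.52), and Gzma had 0 UMIs left in cKO.

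Between 7 and 21 dpi, over all T and NK-like nuclei, no member was past 2-fold higher in any group. Within single classes, Prf1 was at 1.06 (−0.37–2.98) in NK-like nuclei of ADWA11, Klrk1 at 1.55 (−0.21–3.65) in γδ-like nuclei of Ctrl and Gzmk at 1.12 (−0.04–2.46) in sub-cluster 6 of Ctrl, with intervals that include 0, where 10.4%, 9.43% and 10.7% of all genes were past 2-fold higher. By marker UMIs, Klrk1 at 1.13 (0.75–1.54) and Eomes at 2.19 (0.53–4.53) were higher in γδ nuclei of ADWA11, where 15.6% of genes were. In CD8 nuclei of Ctrl named in that way Gzma had 18 UMIs at 21 dpi and 0 at 7 dpi and Gzmb was at 1.98 (−0.87–7.43), where 11.9% of genes were higher. In Ctrl, Ncr1 at −1.33 (−1.86 to −0.81) and Eomes at −2.31 (−3.20 to −1.49) were the 2 past 2-fold lower, where 9.04% of all genes were higher and 6.13% lower. In female Ctrl nuclei Gzma, Gzmb and Ifng had the opposite sign to all Ctrl nuclei, at 1.02, 2.19 and 1.34 against −0.62, −0.17 and −0.97. Gzmb was at 2.25 without sub-cluster 6. These genes had at most 23 UMIs in a Ctrl library. In ADWA11, 3 were lower (Gzma at −1.29, Gzmb at −1.46 and Nkg7 at −1.04), against 8.95% of genes higher and 10.7% lower, while Klrk1 was at 0.53 (0.32–0.74). In male ADWA11 nuclei those 3 genes had the opposite sign: Gzma had 90 UMIs at 21 dpi and 0 at 7 dpi, which makes 1.37 a lower bound, and Gzmb was at 1.99 and Nkg7 at 1.57. Without the nuclei led by another class, Gzmb, Ifng and Nkg7 were past 2-fold lower in ADWA11 and Gzma was not. In cKO, 5 were lower, against 15.1% and 12.3% of genes, from the same few nuclei of 7 dpi described above. Within CD8-like nuclei of ADWA11 the summed level was 1855 CPM (1589–2153, 37 nuclei) at 7 dpi and 1063 at 21 dpi, a log2 ratio of −0.80 (−1.04 to −0.56). Female nuclei had that direction, with 2358 CPM (1962–2809, 21 nuclei) at 7 dpi and 991.7 (823.5–1184, 62 nuclei) at 21 dpi. Male nuclei had the opposite one, with 551.7 CPM (252–1047) from 9 UMIs in 6 nuclei at 7 dpi and 1026 (930–1130, 169 nuclei) at 21 dpi, intervals that overlap. Klrk1 at −1.17, Nkg7 at −0.90, Tbx21 at −0.78 and Gzma at −3.92 were lower there, and Tbx21 was at −0.46 (−1.05–0.19) without the nucleus of each library that held most of its UMIs. In NK-like nuclei of ADWA11 the summed level was 4028 and 4335 CPM, a ratio of 0.11 (−0.09–0.31).

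Most nuclei held few of the members together. Of 419 CD8-like nuclei, 20.3% had none, 32.7% had 1, 26.7% had 2 and 12.4% had 3, and no nucleus had more than 6. The pair seen together most often was Nkg7 with Tbx21, in 12.9% of CD8-like nuclei, followed by Nkg7 with Klrk1 in 10.3% and Klrk1 with Tbx21 in 10.0%. Gzmk and Prf1 were seen together in 21 CD8-like nuclei, and Gzma and Gzmb in 2. At the CD8-like median depth of 2174 UMIs per nucleus a missing UMI does not show that a gene was silent.

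Other genes of the pathway were taken from lists that do not include the members, and their counts are read against the 6.02% of all genes past 2-fold higher and 7.84% past 2-fold lower under ADWA11 at 21 dpi. In 21 dpi ADWA11 against Ctrl, over all T and NK-like nuclei, 6 of 18 NK and activating receptor genes were past 2-fold higher and 0 lower, with a median log2 ratio of 0.52. They included Klrg1, an inhibitory receptor of NK cells and effector T cells, at 3.29 (42.8 against 4.37 CPM), and the Ly49 family genes Klra7 at 2.38 and Klra8 at 2.24. Klrg1 (169 against 5 UMIs) and Klra8 (131 against 8) reached the minimum of 10 UMIs through ADWA11, the library in which they were higher. Klrb1c, Klre1, Klra4, Klra7 and Klra8 of this list are also markers used to name NK-like nuclei. NK-like nuclei were a larger share of T and NK-like nuclei under ADWA11, so the list is not independent of that share. Of 12 granule machinery genes 2 were higher (Serpinb6b, a serine protease inhibitor of the cell interior, at 1.35 and Gzmm at 1.02) and 1 lower (Ctsw, a lymphocyte cathepsin, at −1.30). Gzmm had an interval of 0.002–2.21 on 63 against 9 UMIs, and it too reached the minimum through ADWA11. Of 6 inhibitory receptor genes 2 were higher (Tigit at 1.36 and Lag3 at 1.16) and 1 lower (Cd101 at −1.01). The lists of type 1 cytokine input (0 of 10) and of effector and memory factors (0 of 12) had none past 2-fold. Tnf at −1.24 and Xcl1 at −1.32 were lower, each the 1 gene of 4 in its list of death ligands and of chemokines.

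In 21 dpi cKO against Ctrl, 4 of 16 receptor genes were higher and 1 lower, 2 of 12 granule machinery genes higher, 2 of 4 death ligands higher, 1 of 4 chemokines higher and 3 of 5 naive or circulating genes higher, where 9.55% of all genes were higher and 8.23% lower. The genes with the largest values included Tyrobp (2.56), Srgn (1.83) and Ccl3 (1.81), which myeloid cells also express strongly. Nuclei led by myeloid markers (sub-cluster 5) were 76 of 379 in cKO and 21 of 387 in Ctrl. Without the nuclei led by another class the counts were 2 higher and 1 lower of 16, 1 of 12, 1 of 4, 0 of 3 and 1 of 5, against 8.66% of genes higher and 5.61% lower. Ccr7, the lymph node homing chemokine receptor, was at 3.10 (30.1 against 3.50 CPM) with all nuclei kept, and Il12rb2, a subunit of the IL-12 receptor, was at −1.27.

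The partners of 2 members were read in myeloid-like nuclei. Genes that interferon gamma is known to induce were higher under ADWA11 at 21 dpi: 9 of 12 past 2-fold with a median log2 ratio of 1.30, where 6.03% of the 17667 genes tested were past 2-fold higher. Ciita, the activator of MHC class II genes, was at 9.96, 26.5, 0.688, 25.8, 212 and 9.76 CPM in the order of libraries used above, a log2 ratio of 3.04 (2.88–3.19) at 21 dpi. Gbp4, an interferon-induced GTPase, was at 3.18, Iigp1 at 2.40, Gbp5 at 1.99, Gbp2 at 1.95, the T cell chemokine Cxcl9 at 1.38, Irf1 at 1.22 and Cd274, the gene for PD-L1, at 1.14. Cxcl10 was at 0.18 (−0.21–0.58). At 7 dpi 7 of 11 targets were higher under ADWA11, where 8.61% of genes were, and 6 of 11 were higher in cKO, where 14.3% of genes were. Ciita was at −3.86 there. In 21 dpi cKO 1 of 11 was higher and 3 lower, against 7.88% and 7.43%, with Cxcl9 at −3.73, Cxcl10 at −3.28 and Ciita at −1.40. Ifng itself had at most 34 UMIs in a library, and whether its level set these differences was not tested.

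**Figure D5:**
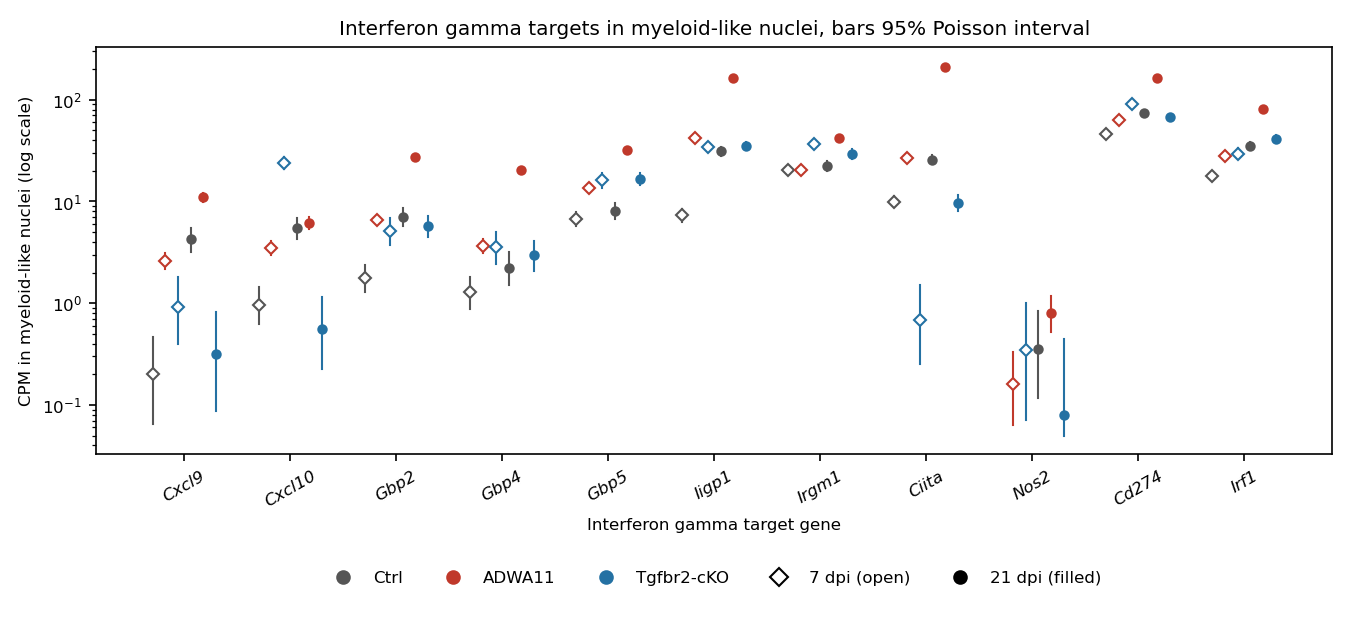
Level of 11 interferon gamma targets (CPM, log axis) in myeloid-like nuclei of each library; open diamonds are 7 dpi, filled circles 21 dpi, colours the groups and bars 95% Poisson intervals, and values with 0 UMIs are not drawn. The filled red circle of 21 dpi ADWA11 is the highest of the 6 for Ciita (212 CPM), Iigp1, Gbp2, Gbp4, Gbp5, Cxcl9, Cd274 and Irf1, and not for Cxcl10.

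Ligands of NKG2D, the receptor that Klrk1 encodes, were read in the same nuclei. Under ADWA11 at 21 dpi, 0 of the 3 with at least 10 UMIs were past 2-fold, which is too few genes to read against the 6.03% of all genes higher and 12.6% lower. Raet1e was at 65.3 against 61.3 CPM (log2 ratio 0.09), Ulbp1 at 43.0 against 45.9 (−0.09) and H60b at 1.202 against 1.29 (−0.10). H60c had 0 UMIs in every library.

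The genes whose levels followed the 10 members most closely were found by correlating log2 CPM with the summed member level over 24 class and library sums, among 9311 genes with at least 100 UMIs. They were 1700025G04Rik (Pearson r = 0.92), Klrc1 (0.90), Samd3 (0.89) and Fasl (0.88). The sums share libraries and classes, so these values describe likeness across classes and carry no test.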

How the data were processed

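Single-nucleus RNA was measured in 6 libraries. The authors deposited raw UMI count matrices made with Cell Ranger against mm10 (version 7.2.0 per the file headers, 7.1.0 per the submitters' processing notes), with total counts between 64798965 and 140310354 per library. Barcodes outside the 2.5 and 97.5 percentiles of UMIs and genes, or with high mitochondrial shares, were left out within each library. The 6339 called doublets (scanpy 1.11.5) were kept and left out as an alternative. Nuclei were clustered with SCTransform 0.4.2 and Seurat 5.3.0 (30 principal components, resolution 0.5); T and NK-like nuclei were sub-clustered without the 10 genes and named from markers (at least 3 raised). NK-like classes were limited to under 20% Cd3e-positive nuclei, a limit set after seeing the data. Of all barcodes, 553 occurred in more than 1 library, 2 of them among T and NK-like nuclei.

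Levels are CPM of summed UMIs, with exact Poisson 95% intervals; ratios have exact conditional binomial and shares Clopper-Pearson intervals (scipy 1.17.1). A count of 0 was set to 3 counts as its limit. Past 2-fold means a fold over 2 with at least 10 UMIs in both libraries together. Classes with under 20 nuclei were given no level. With 1 library per group no test was run, although scripts were tested on simulated data. Alternatives covered scaling (TMM, edgeR 4.0.16), doublets, sex, naming, resolution, filters and thinning. Named genes of the lists were up to 3 per direction, by the size of the ratio, with an interval that excludes 0; the likeness ranking took the top 5. Some genes that these rules name are not reported here. The members and lists were chosen with earlier results of these data known.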

Additional observations from a re-analysis of the deposited data

Results flagged for a closer look

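Nkg7 had opposite signs at the 2 times under ADWA11. Its log2 ratio to Ctrl over all T and NK-like nuclei was 0.44 at 7 dpi and −0.68 at 21 dpi, with both intervals clear of 0. Without sub-cluster 6 the ratio was 0.75 at 7 dpi and 0.53 at 21 dpi, so that the signs did not differ, and in male nuclei of 7 dpi it was −1.55. The difference between the times was not tested, since each group is 1 library.

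Gzmk was found outside lymphocytes. Of its UMIs over all nuclei, 56.2% lay in neuron-like nuclei, more than the 32.0% in T and NK-like nuclei, at 3.69 CPM.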

How the results depend on the processing

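No block over replicate numbers was fitted, since each group is 1 library; values by sex are given instead. Values are log2 ratios of the summed level over T and NK-like nuclei unless another is named. As a mean per nucleus, 6 of these ratios lay outside the interval of the reported value and 1 inside. ADWA11 to Ctrl at 21 dpi (0.58) was 0.27 in female nuclei, 0.41 without the nuclei led by another class and 0.88 without sub-cluster 6. ADWA11 to Ctrl at 7 dpi (0.55) was 0.90 as a mean per nucleus, 1.21 in female and −0.98 in male nuclei, and 0.39 with filters over all libraries. There Gzma was −2.26 (an upper bound), Gzmb −0.035 and Prf1 −0.45 in male nuclei, and Prf1 −0.10 in female nuclei. cKO to Ctrl at 7 dpi (1.33) was 0.90 per nucleus, 1.79 without other-led nuclei, 0.67 without the top nucleus and −2.88 without sub-cluster 6, where Nkg7 was −1.36; the members lower numbered 1 in place of 3 without other-led nuclei. cKO to Ctrl at 21 dpi (−0.15) was −0.33 per nucleus, −0.54 in female and 0.13 in male nuclei, 0.060 with filters over all libraries and −0.37 without sub-cluster 6, and in female nuclei Gzma was −0.63 and Ifng −0.22. From 7 to 21 dpi, Ctrl (−0.24) was 0.19 per nucleus, 0.23 in female and −0.59 in male nuclei and −0.43 with filters over all libraries. ADWA11 (−0.22) was −0.053 per nucleus, −0.11 without doublets, −0.71 in female and 0.97 in male nuclei, and 0.025 without sub-cluster 6; in male nuclei Gzma was 1.37, Gzmb 1.99 and Nkg7 1.57. cKO (−1.73) was −1.05 per nucleus, −2.13 without other-led nuclei, −1.04 without the top nucleus and 2.31 without sub-cluster 6, where Nkg7 was 0.78 and Ncr1 1.80; without each gene's own top nucleus Gzma (−2.86) was 0.23, a lower bound. In CD8-like nuclei at 21 dpi, ADWA11 to Ctrl (0.11) was −0.48 in female nuclei and −0.56 by marker UMIs, and 21 to 7 dpi in ADWA11 (−0.80) was −0.54 with TMM and −1.25 in female nuclei.

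Thinned to 1000 UMIs, nuclei with any member were 43.1% in 7 dpi ADWA11, 39.7% in 21 dpi Ctrl, 45.9% in 21 dpi ADWA11 and 30.7% in 21 dpi cKO, against 57.3%, 52.5%, 62.7% and 40.4% unthinned. Thinned to 2000 UMIs they were 44.1% in 21 dpi Ctrl and 55.0% in 21 dpi ADWA11. By marker UMIs, CD8 nuclei were 14.7% of T and NK-like nuclei in 7 dpi Ctrl, 19.9% in 21 dpi Ctrl, 22.3% in 21 dpi ADWA11 and 21.6% in 21 dpi cKO, γδ nuclei 16.9% in 7 dpi ADWA11 and 11.01% in 21 dpi ADWA11, and NK nuclei 12.2% in 21 dpi ADWA11. Over all alternatives, 830 values of member ratios in T and NK-like nuclei had the sign of the reported value and 78 the opposite sign. The 830 include 70 values at resolution 1 and 70 with the members kept among the genes used to sub-cluster. These settings only split the same T and NK-like nuclei differently, so their ratios had to equal the reported ones. They cannot show whether a sign is stable. The causes of the opposite signs were not tested. The alternatives without sub-cluster 6 or a top nucleus were chosen after seeing the data. One library per group and few UMIs of Ifng, Gzmb and Gzmk limit every comparison, and the spread between mice of 1 sex was not measured.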
